A study of Rattus norvegicus with 11 samples.

Results

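The genes described here are 10 exporters of the ATP-binding cassette (ABC) family that hepatocytes use to move bile constituents, sterols and drugs out of the cell. They were found by symbol in the platform annotation of an Affymetrix rat array, which gave 11 probe sets with a single symbol among 31099 probe sets in all, and 10 genes among 14217 named ones. Of the 10 genes 7 encode exporters of the canalicular membrane, which faces the bile (Abcb1a, Abcb4, Abcb11, Abcc2, Abcg2, Abcg5 and Abcg8), and 3 encode exporters of the basolateral membrane, which faces the blood (Abcc3, Abcc4 and Abcc6). Abcb1a had 2 probe sets and each other gene had 1. A further probe set carried both Abcb1a and Abcb1b and was left out, so Abcb1b was not analysed here.

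Liver RNA was measured on 11 arrays, 1 per animal, in 8 Wistar rats given the high dose of mequindox (animals 2, 3, 4, 5, 6, 8, 10 and 11) and 3 control Wistar rats (animals 1, 2 and 9). Mequindox is a synthetic antibacterial of the quinoxaline N-oxide class used in livestock, and the comparison asks how its high dose changed liver expression. The age label of all animals was week 9 except for high-dosed animal 8, whose age label was week 10. Neither the sex of the animals nor how much mequindox they received, and for how long, is given in the sources used here. The series' design text says that these groups were picked with liver extract and clinical chemistry measurements in view. Median intensity per array ran from 149 to 187 in high-dosed animals and from 162 to 176 in controls. The lowest medians were those of high-dosed animals 8, 10 and 11 (149.3, 153 and 149). These animals are left out together in some alternatives below, although no label sets them apart as a set. The 15 measured hepatocyte markers were all bright enough to be tested. Their summed intensity lay between 268539 and 281073 in high-dosed animals and between 274524 and 275188 in controls. That sum is mostly made of very bright probe sets, Alb holding the highest value of the data (34328), and says little about dimmer markers. In whole liver, fewer cells of a type and less RNA per cell cannot be told apart.

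Hepatocytes secrete bile across the canalicular membrane, where separate ABC exporters carry bile salts, phospholipid, sterols, conjugated organic anions and drugs. Other members of the same family sit on the basolateral side and return conjugates and bile salts to the blood, a route known to gain capacity when bile flow is impaired. Several of these genes are known targets of nuclear receptors: FXR (Nr1h4) for bile salts, LXR (Nr1h3) for sterols, and PXR (Nr1i2) and CAR (Nr1i3) for foreign compounds. ABCG5 and ABCG8 are half-transporters that work only as a heterodimer.

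Abcg5 and Abcg8 lie head to head on rat chromosome 6. Their first bases are 206 bases apart on opposite strands in RefSeq (GRCr8), so that their promoter windows, each from 250 bases before to 50 bases after the start, share 295 bases. The window of Abcg5 is printed because both genes had lower values in high-dosed animals, and that of Abcc2 because it rose without any overlap between the groups. Abcg5 is on the plus strand at chr6:15717686-15717985, and Abcc2 on the plus strand at chr1:252613625-252613924. Capitals mark matches to the motifs described after the sequences.
Abcg5: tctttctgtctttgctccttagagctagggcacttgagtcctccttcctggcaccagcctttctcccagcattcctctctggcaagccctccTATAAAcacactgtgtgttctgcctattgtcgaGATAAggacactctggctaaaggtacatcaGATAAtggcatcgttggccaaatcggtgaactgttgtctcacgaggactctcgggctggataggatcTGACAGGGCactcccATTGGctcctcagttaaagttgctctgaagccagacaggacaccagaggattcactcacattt
Abcc2: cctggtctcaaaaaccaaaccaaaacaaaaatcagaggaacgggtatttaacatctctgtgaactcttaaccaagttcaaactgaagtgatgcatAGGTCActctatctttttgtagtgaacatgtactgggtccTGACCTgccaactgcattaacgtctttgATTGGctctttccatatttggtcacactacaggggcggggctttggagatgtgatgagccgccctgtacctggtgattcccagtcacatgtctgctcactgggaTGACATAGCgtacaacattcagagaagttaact
The 6 motifs searched, on both strands, were GATAA (the core bound by GATA factors), AGGTCA (the half-site of nuclear receptors), CCAAT (bound by NF-Y), TATAAA (the TATA box), TGACNNNGC (the core of the antioxidant response element) and CACGTG (the E-box). The Abcg5 window held GATAA starting 125 and 95 bases before its first base, as well as TATAAA, TGACNNNGC and, on the opposite strand, CCAAT. Read from the other strand, each of these matches also lay in the window of Abcg8. The Abcc2 window held AGGTCA once on each strand, starting 155 and 115 bases before its first base, CCAAT on the opposite strand, and TGACNNNGC starting 17 bases after its first base. No matches overlapped in either window. Of 33469 RefSeq promoter windows of this length, 26.5% held GATAA, 16.2% AGGTCA, 37.5% CCAAT, 14.2% TATAAA, 12.1% TGACNNNGC and 6.42% CACGTG. A window was given for 8 of the 10 genes, and Abcb11 and Abcc3 had none. A match describes letters and is not a shown binding site.

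Among the 10 exporters, Abcg5 was lower and Abcc2 and Abcc3 were higher in high-dosed animals, while the bile salt pump Abcb11 had nearly the same mean in both groups. Changes were tested with limma on log2(intensity + 55.26), and a log2 fold change is high-dosed minus control on that scale, which understates changes of dim genes. Genes with a mean log2 signal under 7.40, equal to an intensity of 113 before the pseudocount, were left out of the test, which kept 10714 genes and 9 of the 10 exporters. A gene was said to rise or fall at a Benjamini-Hochberg adjusted p below 0.05 over all genes tested. Of the 7 canalicular exporters 1 rose, 1 fell, 4 did not pass the test and Abcg8 was under the filter. Of the 3 basolateral exporters 1 rose and 2 did not pass. Over all genes tested 10.6% were called, 7.91% as higher and 2.74% as lower, and with 10 members these counts are a description only. The split of 847 higher and 294 lower calls became 589 and 333 after quantile normalization. High-dosed animals and controls were fully separated for 2 of the 10 exporters, Abcc2 and Abcg5, as for 12.1% of all genes tested. Without the filter, 6.65% of 14217 genes were called, and the median log2 fold change was 0.031 over the 10 exporters and -0.0027 over all genes.

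**Figure D1:**
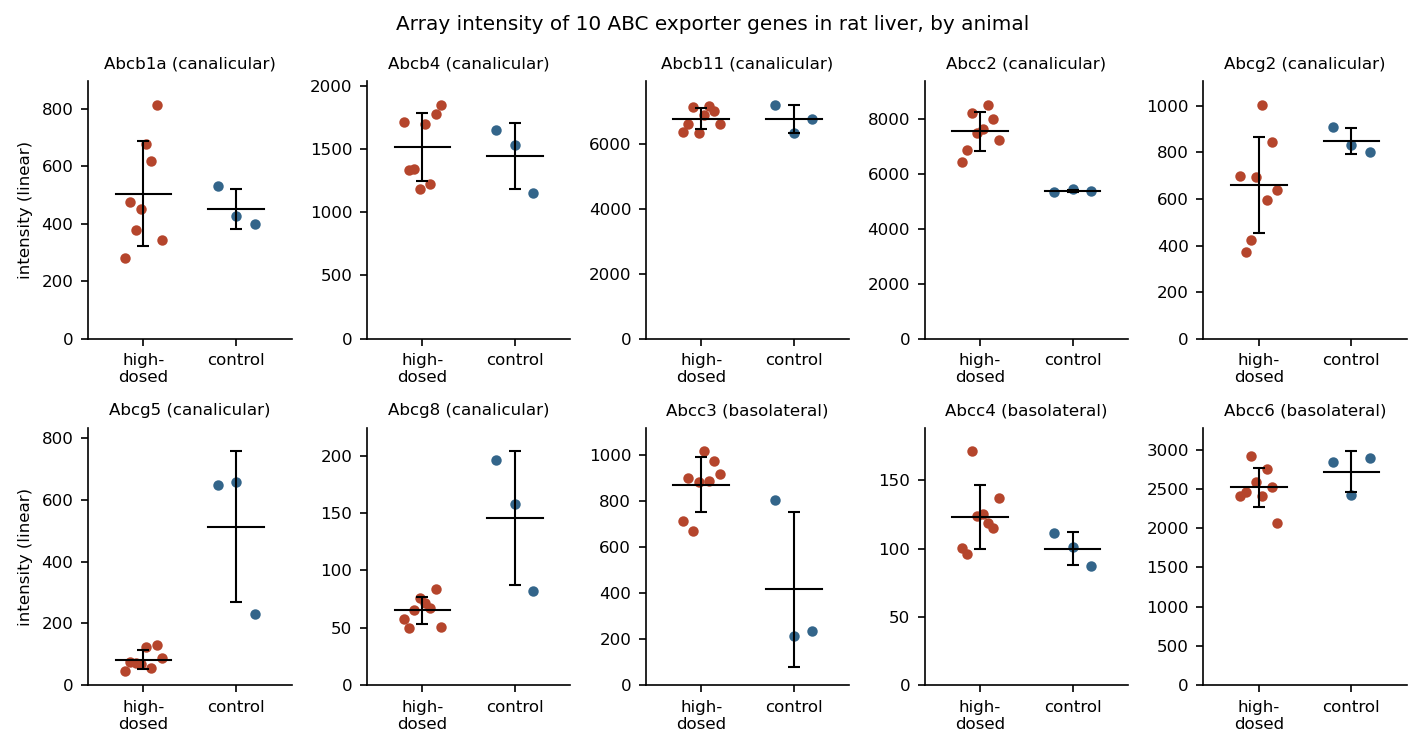
Deposited intensity on a linear scale (vertical axes) of the 10 exporter genes, each by its brightest probe set, with 1 point per animal, 8 high-dosed animals on the left and 3 controls on the right of each panel; horizontal lines are means and bars are 1 SD. Abcc2 in all 8 high-dosed animals lies above every control, Abcg5 below every control, and control 1 stands apart from the other controls for Abcc3.

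The sterol exporter genes gave the lowest values in high-dosed animals relative to controls. ABCG5 and ABCG8 together move cholesterol and plant sterols into bile. Abcg5 had a lowest, median and highest intensity of 46.5, 72.1 and 130.4 in high-dosed animals, against 648.4, 659.5 and 230.3 in controls 1, 2 and 9. Every high-dosed animal lay under every control, and control 9 stood far under the other controls. The mean intensity was 82.1 ± 30.5 in high-dosed animals and 513 ± 245 in controls (SD, n = 8 and 3). Abcg5 fell by 1.96 ± 0.26 on the log2 scale (SE; 95% interval -2.52 to -1.40; limma adjusted p = 0.00128), a 3.89-fold lower value in high-dosed animals. It kept its call in all 21 alternatives that gave it a value, with adjusted p from 0.000266 to 0.0107. Of the high-dosed animals 6 lay under the filter value, so that its presence among the tested genes rests on the controls and the size of its fall is less certain: without a pseudocount it was -2.57.

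Abcg8 had a lowest, median and highest intensity of 50.1, 66.4 and 83.5 in high-dosed animals, against 196.6, 158.3 and 81.9 in controls 1, 2 and 9. Of the high-dosed animals 7 lay under every control, and 1, animal 6 at 83.5, lay just over control 9, which was the lowest control for Abcg8 as it was for Abcg5. All 8 high-dosed animals and control 9 were under the filter value, and the table gives no detection calls. In the fit of 14217 genes without a filter, Abcg8 fell by 0.70 ± 0.15 on the log2 scale (SE; 95% interval -1.01 to -0.38; limma adjusted p = 0.0144). That call was lost without control 1 (-0.51, adjusted p = 0.101), without control 2 (-0.63, adjusted p = 0.0613) and without high-dosed animals 8, 10 and 11 (-0.61, adjusted p = 0.051), and over the alternatives the adjusted p ran from 0.00171 to 0.101. Without a pseudocount the change was -1.09.

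The canalicular organic anion exporter Abcc2, also called Mrp2, exports bilirubin glucuronides and glutathione and drug conjugates into bile. Its intensity in high-dosed animals had a lowest value of 6409.6, a median of 7546 and a highest value of 8496, against 5319.8, 5421 and 5359.9 in controls 1, 2 and 9. All 8 high-dosed animals lay over all 3 controls, and the controls were close to each other. Within the high-dosed group the lowest values were those of animals 10 (6409.6), 11 (6844) and 8 (7201). Abcc2 rose by 0.48 ± 0.074 on the log2 scale (SE; 95% interval 0.32 to 0.64; limma adjusted p = 0.00244), which is 1.39-fold. Mean intensity was 7529 ± 701 in high-dosed animals and 5367 ± 51.1 in controls (SD, n = 8 and 3). The call held in all 22 alternatives, with log2 fold changes from 0.45 to 0.56 and adjusted p from 0.000599 to 0.0178.

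Abcc3, or Mrp3, exports glucuronides and some bile salts across the basolateral membrane. Its intensity in high-dosed animals had a lowest value of 672.1, a median of 893.7 and a highest value of 1017, against 806.8, 212.9 and 233.4 in controls 1, 2 and 9. Controls 2 and 9 lay far under all high-dosed animals, while control 1 lay inside their range, over 2 of them. Abcc3 rose by 1.18 ± 0.27 on the log2 scale (SE; 95% interval 0.59 to 1.77; limma adjusted p = 0.0188), which is 2.27-fold. The value rested on the controls: it was 1.72 without control 1 (adjusted p = 0.000233), but the call was lost without control 2 (0.88, adjusted p = 0.0909) or control 9 (0.93, adjusted p = 0.0861). It was also lost without high-dosed animals 8, 10 and 11 (1.20, adjusted p = 0.0532), and over all 22 alternatives the adjusted p ran from 0.000233 to 0.0909.

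The other basolateral exporters did not pass the test. Abcc4, or Mrp4, which exports bile salts together with glutathione as well as cyclic nucleotides, had a lowest, median and highest intensity of 96.0, 121.3 and 171.3 in high-dosed animals, against 111.2, 101.2 and 87.2 in controls 1, 2 and 9. Of the high-dosed animals 6 lay over every control, the highest being animal 2. Its log2 fold change was 0.20 (95% interval -0.041 to 0.44; limma adjusted p = 0.292), with all 3 controls and 2 high-dosed animals under the filter value. Abcc6, or Mrp6, whose loss in humans causes ectopic mineralisation of connective tissue, had a lowest, median and highest intensity of 2064, 2494 and 2916 in high-dosed animals, against 2849.6, 2419.7 and 2889 in controls 1, 2 and 9. The groups overlapped, and its log2 fold change was -0.11 (95% interval -0.31 to 0.085; limma adjusted p = 0.487).

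The exporters of bile salts and phospholipid showed no called change. Abcb11, the bile salt export pump, had a lowest, median and highest intensity of 6355, 6776 and 7194 in high-dosed animals, against 7211, 6353.6 and 6792 in controls 1, 2 and 9. All 8 high-dosed animals lay inside the range of the controls. Its log2 fold change was 0.00029 with a narrow 95% interval, -0.11 to 0.11 (limma adjusted p = 0.998). Abcb4, or Mdr2, moves phosphatidylcholine to the bile side of the canalicular membrane. Its intensity ranged from 1181 to 1852 with a median of 1522 in high-dosed animals, against 1650.4, 1535 and 1155 in controls 1, 2 and 9. Here 4 high-dosed animals lay over every control and the other 4 among them, and the log2 fold change was 0.061 (95% interval -0.26 to 0.39; limma adjusted p = 0.834).

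The canalicular drug exporters had no called change and varied widely among the high-dosed animals. Abcb1a encodes a P-glycoprotein that exports many hydrophobic drugs. Its brighter probe set had a lowest, median and highest intensity of 281.1, 462.3 and 813.2 in high-dosed animals, against 530.6, 425.6 and 398.6 in controls 1, 2 and 9. High-dosed animals lay on both sides of the controls, 3 over all of them and 3 under all of them. The log2 fold change was 0.084 (95% interval -0.45 to 0.61; limma adjusted p = 0.862), and the second probe set of Abcb1a gave 0.10 (adjusted p = 0.802 over 18625 probe sets, of which 6.92% were called). Abcg2, the breast cancer resistance protein, which exports sulfates, urate and drugs, had a lowest, median and highest intensity of 374.0, 665.0 and 1005 in high-dosed animals, against 911.3, 833.4 and 803.9 in controls 1, 2 and 9. For Abcg2, 6 high-dosed animals lay under every control, but animal 6 lay among them and animal 4 over them. Its log2 fold change was -0.39 (95% interval -0.88 to 0.087; limma adjusted p = 0.297). The SD of log2 signal within the high-dosed group was 0.47 for Abcb1a and 0.43 for Abcg2. For the other 8 exporters it ran from 0.070 (Abcb11) to 0.31 (Abcg5). This is on the scale with the pseudocount, which narrows the spread of dim genes such as Abcg5. On the linear scale the high-dosed mean ± SD was 504 ± 183 for Abcb1a, 659 ± 206 for Abcg2 and 82.1 ± 30.5 for Abcg5. Relative to its mean, Abcg5 thus spread about as widely as the drug exporters.

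**Figure D2:**
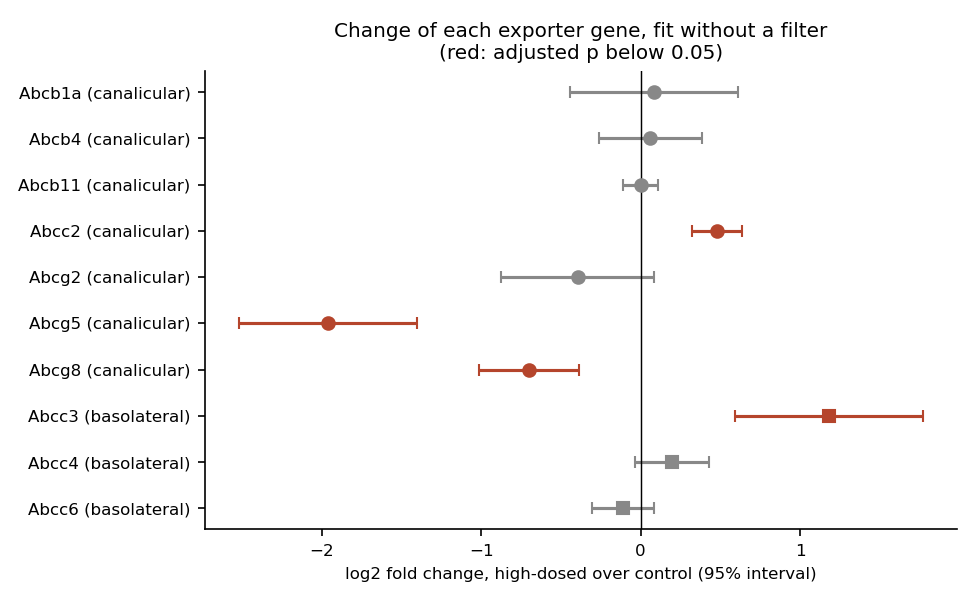
Log2 fold change, high-dosed over control (horizontal axis), of each exporter gene from the limma fit without a filter, with its 95% interval; circles are canalicular and squares basolateral exporters, red those with an adjusted p below 0.05. Abcg5 and Abcg8 lie under 0, Abcc2 and Abcc3 over 0, and the intervals of the other 6 genes cover 0.

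For 4 pairs of exporters, the difference of their log2 signals in each animal was compared between the groups. The test was two-sided, by exact permutation of the group labels among the 11 animals, and cannot give a p under 0.00606. The difference in change between Abcg5 and Abcg8 was -1.26, with all 8 high-dosed animals under every control (exact permutation p = 0.00606, adjusted p = 0.0242 over 4 pairs). It was not called without control 2 (-1.10) or control 9 (-1.45), both at an adjusted p of 0.0889. Nor was it called without high-dosed animals 8, 10 and 11 (-1.28, adjusted p = 0.0714). These adjusted p are the lowest that a pair alone can reach with so few animals. The lost calls therefore do not show that the difference is unstable. In high-dosed animals both probe sets were dim, with 6 of 8 Abcg5 values and all 8 Abcg8 values under the filter value and a mean difference of 0.17, against 1.43 in controls. The difference therefore does not show that the 2 genes fell unequally, and leaving out the pseudocount (-1.49, adjusted p = 0.0242) does not remove this limit. The basolateral Abcc3 minus the canalicular Abcc2 gave 0.70 with an exact permutation p of 0.0545 (adjusted p = 0.0727), and 0 of 8 high-dosed animals lay over every control, where control 1 was high. That difference was 1.25 and called without control 1 (adjusted p = 0.0296). This call rests on other pairs sharing the smallest exact p there, since a pair alone at that p would not be called. Abcc4 minus Abcc3 gave -0.98 (exact permutation p = 0.0242, adjusted p = 0.0485), with 5 of 8 high-dosed animals under every control, and Abcc4 was itself dim in both groups. It lost its call without any 1 of 10 arrays, controls 2 and 9 and each of the 8 high-dosed animals (-1.08 to -0.68, adjusted p from 0.05 to 0.178). Leaving out control 2 or 9 raises the smallest exact p here too, but Abcc4 minus Abcc3 did not reach that smallest p there. Abcb4 minus Abcb11 gave 0.061 (exact permutation p = 0.77, adjusted p = 0.77).

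Among nuclear receptors and other factors known to act on exporter genes, Nr1i3, encoding CAR, rose and the receptors for bile salts and sterols did not pass. Of 18 tested members 2 rose, 0 fell and 16 did not pass, where 10.6% of all genes were called, and the median log2 fold change was 0.025 against 0.017 over all genes tested. Nr1i3 had a lowest, median and highest intensity of 573.8, 760.7 and 1195 in high-dosed animals, against 624.7, 216.3 and 275.4 in controls 1, 2 and 9. As for Abcc3, control 1 lay inside the high-dosed range and controls 2 and 9 under it. Its log2 fold change was 1.08 ± 0.25 (SE; limma adjusted p = 0.0194), lost without control 2 or 9 (0.81 and 0.95, adjusted p up to 0.0938) and 1.47 without control 1. For Cyp7a1, of the LXR targets below, control 1 alone lay inside the high-dosed range too. Its values were 5071.5, 2355.1 and 2047.1 in controls 1, 2 and 9, against 3829.4 to 6449 in high-dosed animals (0.73, limma adjusted p = 0.0526). A relation of Nr1i3 to Abcc3 was not tested. Nfe2l2, encoding Nrf2, the regulator of antioxidant genes, rose by 0.29 ± 0.078 (SE; limma adjusted p = 0.0359), with 7 of 8 high-dosed animals over every control. Its call was lost without any 1 of 7 arrays, namely controls 1 and 2 and high-dosed animals 3, 5, 6, 8 and 11 (0.20 to 0.29, adjusted p from 0.0505 to 0.223), and after quantile normalization, median centring or leaving out animals 8, 10 and 11 together (adjusted p from 0.0568 to 0.102). Nr1h4 (0.13), its target Nr0b2 (-0.11), Nr1h3 (-0.0098) and Nr1i2 (0.094) had limma adjusted p from 0.623 to 0.937. Ppara, the fatty acid receptor, was under the filter, with a mean intensity of 92.2 ± 12.7 in high-dosed animals and 101.5 ± 5.1 in controls (SD, n = 8 and 3).

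**Figure D3:**
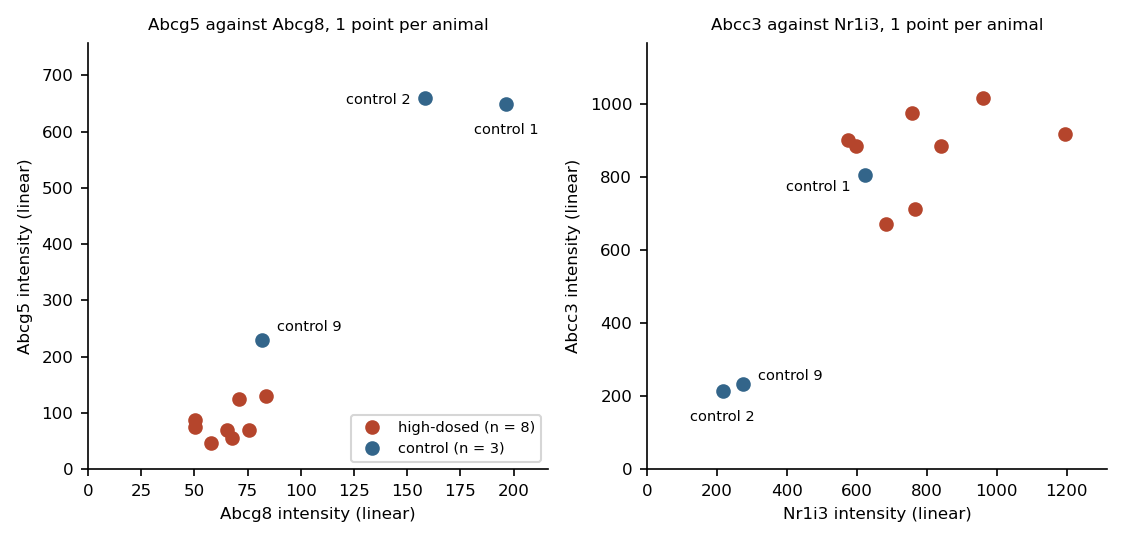
Intensity of Abcg5 against Abcg8 (left) and of Abcc3 against Nr1i3 (right) on linear axes, 1 point per animal, red for the 8 high-dosed animals and blue for the 3 controls. Control 9 is the lowest control for both sterol exporter genes, at 230.3 and 81.9, and control 1 lies with the high-dosed animals in the right panel, at 806.8 for Abcc3 and 624.7 for Nr1i3.

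Around sterol export, the genes called were Mylip, Lrp1 and Insig1. The list of LXR targets did not hold Abcg5 and Abcg8, described above, so the lower values of these sterol exporters are not in its count or median. Of its 14 tested genes 1 rose, 0 fell and 13 did not pass (median 0.15), where 10.6% of all genes were called. The gene that rose was Mylip, encoding a ubiquitin ligase that degrades the LDL receptor. It had a mean intensity of 255 ± 37.1 in high-dosed animals and 143 ± 36.5 in controls (SD, n = 8 and 3), with no overlap. Its log2 fold change was 0.66 ± 0.13 (SE; limma adjusted p = 0.00728), and 0.50 without control 1, where the call was lost (adjusted p = 0.0537). The sterol exporter Abca1, which loads cholesterol onto apolipoprotein A-I, had a log2 fold change of 0.21 (limma adjusted p = 0.384). Of 13 tested genes of sterol uptake and handling 2 fell, 0 rose and 11 did not pass (median 0.035), again beside 10.6% of all genes. Lrp1, an endocytic receptor for remnant lipoproteins, fell by 0.36 ± 0.085 (SE; limma adjusted p = 0.0194; its other probe set gave -0.11), and Insig1, which holds back cholesterol synthesis, fell by 0.39 ± 0.11 (SE; limma adjusted p = 0.0448). The call of Lrp1 was lost without control 1 or 2 (-0.34 to -0.32, adjusted p up to 0.106), and that of Insig1 without any 1 of 7 arrays, controls 1 and 9 and high-dosed animals 2, 3, 5, 6 and 11 (-0.40 to -0.34, adjusted p up to 0.211). Lrp1 was also not called after median centring, with the median of its probe sets or without animals 8, 10 and 11 (-0.33 to -0.24, adjusted p from 0.0569 to 0.131), nor Insig1 after median centring, without a filter, without a variance trend or with all probe sets tested (adjusted p from 0.0536 to 0.0708).

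Among other ABC genes, 26 were tested, of which 2 rose, 1 fell and 23 did not pass (median 0.0028), a share close to the 10.6% called over all genes. Abcc5, which exports cyclic nucleotides and nucleotide analogues, rose by 0.69 ± 0.20 on the log2 scale (SE; limma adjusted p = 0.0472), with 8 of 8 high-dosed animals over every control. The other of its 2 probe sets gave -0.055, and the median of both gave 0.32 (adjusted p = 0.251). Abcd4, which takes part in the release of cobalamin from lysosomes, rose by 0.25 ± 0.075 (SE; limma adjusted p = 0.0487). Abce1, a ribosome recycling factor and not a transporter, fell by 0.36 ± 0.10 (SE; limma adjusted p = 0.038). The call of Abcc5 was lost without any 1 of 7 arrays (all 3 controls and high-dosed animals 3, 4, 6 and 8; 0.62 to 0.71, adjusted p up to 0.168). That of Abcd4 was lost without any 1 of 9 arrays (all 3 controls and high-dosed animals 3, 5, 6, 8, 10 and 11; 0.23 to 0.27, adjusted p up to 0.177). That of Abce1 was lost without any 1 of 7 (controls 1 and 9 and high-dosed animals 3, 4, 5, 10 and 11; -0.37 to -0.26, adjusted p up to 0.235). The calls of Abcc5 and Abcd4 also ended without a filter (adjusted p = 0.059 and 0.0694), and under a further 4 and 5 alternatives, and that of Abce1 after median centring and without animals 8, 10 and 11 (adjusted p = 0.0831 and 0.0844). Abcc1, a basolateral relative of Abcc3, had a log2 fold change of 0.046 (limma adjusted p = 0.743).

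Of 19 tested genes of the canalicular membrane and its upkeep 2 rose, 1 fell and 16 did not pass (median 0.012), where 10.6% of all genes were called. The count is a description of the list, which also holds the basolateral Slc51a. Ezr, encoding ezrin, which links membrane proteins to actin, rose by 0.49 ± 0.13 on the log2 scale (SE; limma adjusted p = 0.0314). Vipas39, a partner of VPS33B in apical trafficking, rose by 0.25 ± 0.066 (SE; limma adjusted p = 0.0325), while the other of its 2 probe sets gave 0.0096. Ceacam1, an adhesion protein of the canalicular membrane, fell by 0.22 ± 0.059 (SE; limma adjusted p = 0.0318), with 8 of 8 high-dosed animals under every control. The call of Ezr was lost without control 1 or 9 (0.39 to 0.44, adjusted p up to 0.186). That of Vipas39 was lost without any 1 of 6 arrays (all 3 controls and high-dosed animals 5, 8 and 10; 0.23 to 0.28, adjusted p up to 0.105), and that of Ceacam1 without any 1 of 4 (all 3 controls and high-dosed animal 5; -0.25 to -0.20, adjusted p up to 0.135). The median over the 3 probe sets of Ceacam1 gave -0.12 (adjusted p = 0.495). Without animals 8, 10 and 11 none of the 3 was called (adjusted p from 0.0734 to 0.0954), and Vipas39 and Ceacam1 were also not called after median centring (adjusted p = 0.0569 and 0.153), nor Vipas39 after quantile normalization (adjusted p = 0.0856). Atp8b1, a flippase that keeps the canalicular membrane stable against bile salts, had a log2 fold change of -0.060 (limma adjusted p = 0.706). Slc51a, a subunit of a basolateral bile salt transporter, had one of -0.092 (limma adjusted p = 0.571).

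**Figure D4:**
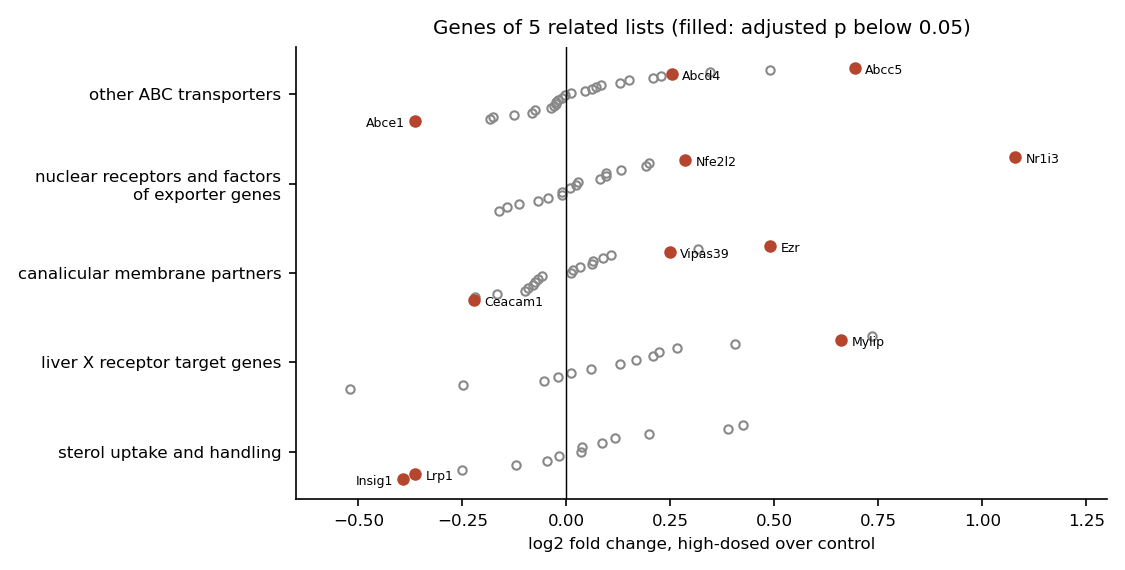
Log2 fold change, high-dosed over control (horizontal axis), of the tested genes of 5 related lists, 1 point per gene; filled red points have a limma adjusted p below 0.05 and are named. Nr1i3 at 1.08 lies farthest to the right, and each list holds 1 to 3 called genes.

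Markers of other liver cell types were measured beside the exporters, since cholangiocytes, the cells of the bile ducts, also make Abcc3, and endothelium makes Abcb1a and Abcg2. Of 10 measured cholangiocyte markers 4 were tested and 1 rose, Epcam, an adhesion protein (0.83 ± 0.15, SE; limma adjusted p = 0.00544). Their summed intensity ran from 2605 to 3240 in high-dosed animals and from 2200 to 2356 in controls, without overlap. That separation rested on Epcam. Without it, a sum chosen after seeing the data, the other 9 markers summed to between 1846 and 2351 in high-dosed animals. In controls 1, 2 and 9 they summed to 1943, 1822 and 1689, so that control 1 lay over high-dosed animals 8, 10 and 11. Most of that sum was Slc4a2 (mean 785.2 in high-dosed animals and 774.1 in controls) and Aqp1 (647.8 and 508.6). Slc4a2 is also in the list of the canalicular membrane. Mean intensity was lower in high-dosed animals for Sctr (53.6 against 63.3, with 7 of 8 under every control), Krt7 (63.6 against 65.8), Slc5a1 (44.0 against 46.4) and Cldn7 (80.1 against 84.3), none of which was bright enough to be tested. The defining keratin Krt19 stood between 79.1 and 134.4 in high-dosed animals and at 55.0, 63.8 and 79.8 in controls 1, 2 and 9. For Krt19, 7 of 8 high-dosed animals lay over every control, mostly under the filter value. No marker was at the lowest value of the table throughout. Control 1, which was high for Abcc3, had a cholangiocyte sum of 2356, against 2232 and 2200 in controls 2 and 9. Of 12 tested endothelial markers 3 rose, Pecam1 (0.60), Emcn (0.55) and Stab2 (0.40), 0 fell and 9 did not pass, where 7.91% of all genes rose. Lyve1, a sinusoidal endothelial marker, went the other way without passing the test (-0.12, with 7 of 8 high-dosed animals under every control). The endothelial summed intensity was 15751 to 17152 in high-dosed animals and 13721 to 15089 in controls, again without overlap. The part of these cells in the values of Abcc3, Abcb1a and Abcg2 was not tested. The summed intensity of 13 measured Kupffer cell and macrophage markers was 34344 to 46604 in high-dosed animals and 25204 to 35419 in controls, with control 1 lowest, and that of 11 stellate cell markers was 12985 to 18174 and 12393 to 14141. Of these lists 1 of 12 tested macrophage markers (Mrc1, 0.31) rose and 0 of 10 tested stellate cell markers were called, where 10.6% of all genes were called. A log2 fold change above 0 was seen for 11 of the 12 macrophage markers (median 0.28) and 8 of the 10 stellate cell markers (median 0.18). Over all genes tested 53.9% lay above 0, with a median of 0.017. Among the 15 hepatocyte markers, Apoa1 was the 1 that rose (0.35) and Asgr1 the 1 that fell (-0.18).

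**Figure D5:**
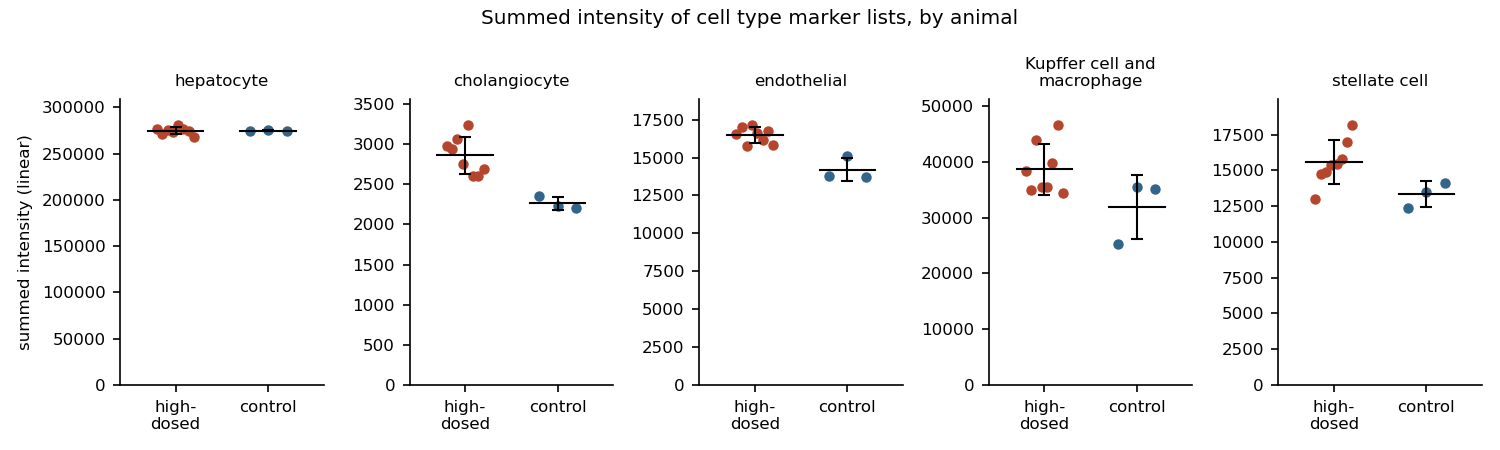
Summed intensity on a linear scale (vertical axes) of 5 lists of cell type markers, 1 point per animal, high-dosed animals on the left and controls on the right; horizontal lines are means and bars are 1 SD. The groups do not overlap for the endothelial list, nor for the cholangiocyte list, where this rests on Epcam, and the hepatocyte sums lie between 268539 and 281073.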

How the data were processed

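Liver RNA of 8 high-dosed and 3 control rats was measured on 1 Affymetrix array each. The deposited values are a probe set intensity on a linear scale, from 1 to 34328; MAS5 is named in the submitters' processing notes, with no version or role, and whether the authors scaled the arrays to each other is not given in the sources used here. Trizol extraction and biotin-labelled cRNA are per the labels' protocols. Arrays have no sequencing depth; their number limits the precision.

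Values were used as log2(intensity + 55.26), the pseudocount being the 20th percentile of all values. The test dropped 57 Affymetrix control probe sets and any whose mean log2 signal lay below the 40th percentile (7.40), keeping 18625 probe sets and 10714 genes, each gene by its brightest probe set with 1 symbol. Of 20832 such probe sets, 20764 matched the RefSeq gene table (GRCr8) by Entrez ID; 436 had several symbols and 9831 none listed. The groups were fitted in limma 3.58.1, R 4.3.3 (high-dosed minus control, intensity trend, two-sided, Benjamini-Hochberg over all genes tested); Abcg8, under the filter, is given from the same fit without a filter. The calculation was tested on simulated data. Differences between exporters used exact permutation tests over animals. The exporters, the gene lists and the 4 pairs were chosen with earlier results of these data known, so none is independent support. Named genes were all exporters, up to 6 called genes of each related list by adjusted p, and 13 fixed genes, of which Abcb1b and Slc51b had no value. Cyp7a1 was named outside this rule, for its values in controls. Alternatives were other pseudocounts, filters, normalizations, variance models and probe set rules, and leaving out arrays.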

Additional observations from a re-analysis of the deposited data

How the results depend on the processing

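No paired analysis was possible because the groups share only animal number 2. The calls of Abcc2 and Abcg5 and the direction of Abcc3, Abcg2, Abcg8, Abcc4 and Abcc6 held in all alternatives that gave a value; filtering at the 60th percentile left Abcg5 and Abcc4 among the exporters without one. The main count of 1141 called genes (847 higher, 294 lower) ran from 325 to 1406 (246 to 1081 higher, 79 to 325 lower) when 1 array was left out, lowest without control 1, and that of 1288 probe sets from 324 to 1688. Without high-dosed animals 8, 10 and 11, 716 genes were called, 506 of them higher. Median centring gave 147 lower calls against 705 higher ones, and quantile normalization 333 against 589; the cause was not tested. Values near 0 turned sign: Abcb11 ran from -0.046 to 0.045 over the single arrays left out and was -0.0043 after quantile normalization, Abcb4 from -0.087 to 0.16 and -0.0052 without animals 8, 10 and 11, and Abcb1a from -0.017 to 0.19. So did Nr0b2 (-0.22 to 0.0014, and 0.10 without animals 8, 10 and 11), Nr1h3 (-0.047 to 0.043, 0.034 without those animals and 0.029 after median centring) and Atp8b1 (-0.12 to 0.019, and 0.0050 without those animals). Over single arrays left out, Abcc3 minus Abcc2 ran from 0.40 to 1.25, Abcc4 minus Abcc3 from -1.47 to -0.68, Abcg5 minus Abcg8 from -1.45 to -1.10 and Abcb4 minus Abcb11 from -0.089 to 0.16. Without animals 8, 10 and 11, Abcb4 minus Abcb11 was -0.035, Abcg5 minus Abcg8 -1.28 and Abcc4 minus Abcc3 -0.95; this last pair was also not called with a pseudocount of 16 (-1.03), with none (-1.04) or after quantile normalization (-0.92). With fewer animals the smallest exact p rises, so a call lost there also reflects the smaller design. Dim signal limits Abcg8, Abcc4 and the high-dosed values of Abcg5.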
